A study of Mus musculus with 12 samples.

Results

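Prostaglandin synthesis and prostaglandin receptors were followed through 10 genes in cultured mouse vascular smooth muscle cells. The genes were taken by symbol from the deposited table and make up 10 of its 55487 genes: the cyclooxygenases Ptgs1 and Ptgs2, the synthases Ptges and Ptgis, and the receptors Ptger1, Ptger2, Ptger3, Ptger4, Ptgfr and Ptgir. RNA came from 4 groups of 3 libraries each: wild-type cells untreated, wild-type cells given PDGF-BB at 40 µg/L for 6 h, and cells labelled TIGAR knockout without and with the same treatment. PDGF-BB is a platelet-derived growth factor that drives smooth muscle cells to proliferate and migrate, and TIGAR is a p53 target that lowers the flux through glycolysis. The cells of all groups were primary cultures at passages 4 to 6 from mice of 4 to 6 weeks of age, grown with fetal bovine serum. The labels do not say how the knockout was made, which vessel was used or whether replicate libraries stand for different mice or dishes. A p-value therefore reflects only how far these libraries vary.

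Prostaglandins are made from arachidonic acid, which phospholipase A2 enzymes release from membranes. Cyclooxygenases turn it into prostaglandin H2, and terminal synthases turn that into prostaglandin E2, prostacyclin and other products, which act on G protein-coupled receptors of the same or neighbouring cells. In the vessel wall, prostacyclin relaxes smooth muscle and restrains platelets, whereas COX-2, the product of Ptgs2, is the cyclooxygenase that growth factors and cytokines typically induce.

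Values are CPM, reads on a gene scaled so that each library sums to 1000000, and the 12 library totals lay between 14953807 and 21698488 reads. Replicate 1 of wild-type with PDGF-BB stood apart: its log2 values lay at a root mean square distance of 0.416 from the other libraries of its group, against 0.143 to 0.293 for the others, and called changes of named genes that moved by over 1.5 times or lost their call without it are also given without it. Tigar, the targeted gene, did not fall with the knockout label, with untreated means of 7.50 ± 0.955 CPM (SD, n = 3) in wild-type and 11.2 ± 1.12 CPM in labelled knockout cells, so each direction between genotypes is by label. Smooth muscle markers were present, among them Acta2 at 1582 CPM in wild-type untreated cells, whereas Tagln stood at 3.41 CPM and Des below 1 CPM in every library. Markers of other cell types differed with the genotype label: the summed level of 10 endothelial markers was 116 to 161 CPM in wild-type and 662 to 820 CPM in labelled knockout libraries, that of 11 macrophage markers 119 to 172 and 36.4 to 46.4 CPM, and that of 8 fibroblast markers, mostly Col14a1, 238 to 401 and 934 to 1660 CPM.

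Per kilobase of exon, the order of the 5 higher genes was the same in all 4 groups. Ptgis, the prostacyclin synthase, was highest, with 120 ± 3.34 CPM per kb (SD, n = 3) in untreated wild-type cells, followed by Ptgs2 at 11.6 ± 1.54, Ptgs1 at 6.32 ± 0.509, Ptges, the inducible prostaglandin E synthase, at 3.80 ± 0.400, and Ptger4, the EP4 receptor for prostaglandin E2, at 1.04 ± 0.219. The ranges of neighbouring genes in this order did not overlap in any group. The other 5 receptors lay between 0 and 0.148 CPM per kb on average in the same cells, and among them the ranges of Ptger1, Ptgfr and Ptger3 overlapped from neighbour to neighbour. The place of Ptges depends on the exon length used: the lengths here are unions of GENCODE M21 exons, 3931 bases for Ptges, but the deposited table lists 543 bases, with which Ptges would stand at 27.5 CPM per kb, above Ptgs2 at 11.9, in wild-type untreated cells.

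The promoters of Ptgs2, Ptges and Ptgs1 are shown because these genes had the largest rises with PDGF-BB among the 5 tested genes. Each is the RefSeq window of GRCm38.p6 from 250 bases before to 50 bases after the gene start, read along the gene's strand, and capitals mark matches to any of 7 short motifs searched on both strands. These were a TATA box (TATAAA), the core of the cyclic AMP response element or CRE (TGACG), an E-box (CACGTG), a palindrome that C/EBP factors bind (TTGCGCAA), the core that EGR factors bind (GTGGGCG), the GC box (GGGCGG) and the AP-1 site (TGANTCA). RefSeq places the start of Ptges inside the longer GENCODE span of that gene, so its window lies within the gene coordinates given for Ptges. The Ptgs2 window is chr1:150099781-150100080 on the plus strand, the Ptges window chr2:30903248-30903547 on the minus strand and the Ptgs1 window chr2:36230176-36230475 on the plus strand.
Ptgs2: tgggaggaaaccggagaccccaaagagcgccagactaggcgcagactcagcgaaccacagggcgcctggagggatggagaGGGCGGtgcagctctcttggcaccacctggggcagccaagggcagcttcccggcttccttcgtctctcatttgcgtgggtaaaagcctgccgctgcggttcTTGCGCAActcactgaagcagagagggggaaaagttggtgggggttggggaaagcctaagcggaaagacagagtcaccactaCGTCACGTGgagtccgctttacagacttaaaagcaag
Ptges: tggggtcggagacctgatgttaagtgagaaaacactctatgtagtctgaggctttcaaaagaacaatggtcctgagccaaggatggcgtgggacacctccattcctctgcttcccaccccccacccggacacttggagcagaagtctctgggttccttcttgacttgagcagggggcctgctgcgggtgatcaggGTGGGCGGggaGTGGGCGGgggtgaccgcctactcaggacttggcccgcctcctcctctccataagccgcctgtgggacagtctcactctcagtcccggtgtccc
Ptgs1: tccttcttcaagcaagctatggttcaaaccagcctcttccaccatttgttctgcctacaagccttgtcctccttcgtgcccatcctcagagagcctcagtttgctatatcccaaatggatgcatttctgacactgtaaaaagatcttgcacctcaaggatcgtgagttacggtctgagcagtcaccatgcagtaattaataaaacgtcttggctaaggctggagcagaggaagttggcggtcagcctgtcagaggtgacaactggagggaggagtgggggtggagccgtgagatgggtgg

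The Ptgs2 window held 4 matches: TTGCGCAA starting 69 bases before the start, a GC box 170 bases before it, and a CRE core on the opposite strand 14 bases after it that overlaps the E-box at base 17. TTGCGCAA occurs in 0.183% of the 32851 promoters of that length, TGACG in 20.8%, CACGTG in 7.15% and GGGCGG in 35.7%. The Ptges window held GTGGGCG 55 and 44 bases before the start, each overlapping a GC box, and GTGGGCG occurs in 7.97% of promoters. The Ptgs1 window held none of the 7, of which TATAAA occurs in 13.6% and TGANTCA in 7.81% of promoters. Of the 10 genes, 8 had a window in the RefSeq table. GC boxes were also in the windows of Ptger3, Ptger4, Ptgfr and Ptgir, GTGGGCG also in that of Ptgfr, and the Ptger2 window held none of the 7. These are matches of letters, and no binding was measured.

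Ptgs2 rose with PDGF-BB in both genotypes and was higher in labelled knockout cells under both conditions. Ptgs2 (ENSMUSG00000032487, chromosome 1, 150100031 to 150108227, plus strand, GRCm38) stood at 53.6, 59.6 and 45.6 CPM in the wild-type untreated libraries and at 172, 180 and 176 CPM with PDGF-BB. The labelled knockout libraries held 89.2, 116 and 121 CPM untreated and 273, 264 and 260 CPM with PDGF-BB. The 4 groups did not overlap, and every labelled knockout library without PDGF-BB lay above every wild-type untreated one and below every treated library of either genotype.

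Changes were tested with limma-trend on log2(CPM + 1), in 1 fit of all 12 libraries over the 14202 genes with at least 1 CPM in at least 3 libraries, with Benjamini-Hochberg adjustment over those genes and a threshold of 0.05. The log2 change of Ptgs2 with PDGF-BB was 1.72 (SE 0.11, adjusted p = 4.00e-08) in wild-type and 1.29 (SE 0.11, adjusted p = 1.29e-06) in labelled knockout cells. Labelled knockout exceeded wild-type by 1.02 without PDGF-BB (adjusted p = 1.17e-05) and by 0.59 with it (adjusted p = 0.00112). All 4 calls held in each of 24 alternative settings of scaling, filter, tool, weighting and left-out library. The response in labelled knockout minus that in wild-type was -0.43 (95% interval -0.77 to -0.09) and was not called (adjusted p = 0.146), but it passed the threshold when replicate 1 of the treated wild-type (-0.45, adjusted p = 0.0474) or of the untreated labelled knockout group (-0.57, adjusted p = 0.0274) was left out and with library weights (-0.57, adjusted p = 2.52e-05).

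**Figure D1:**
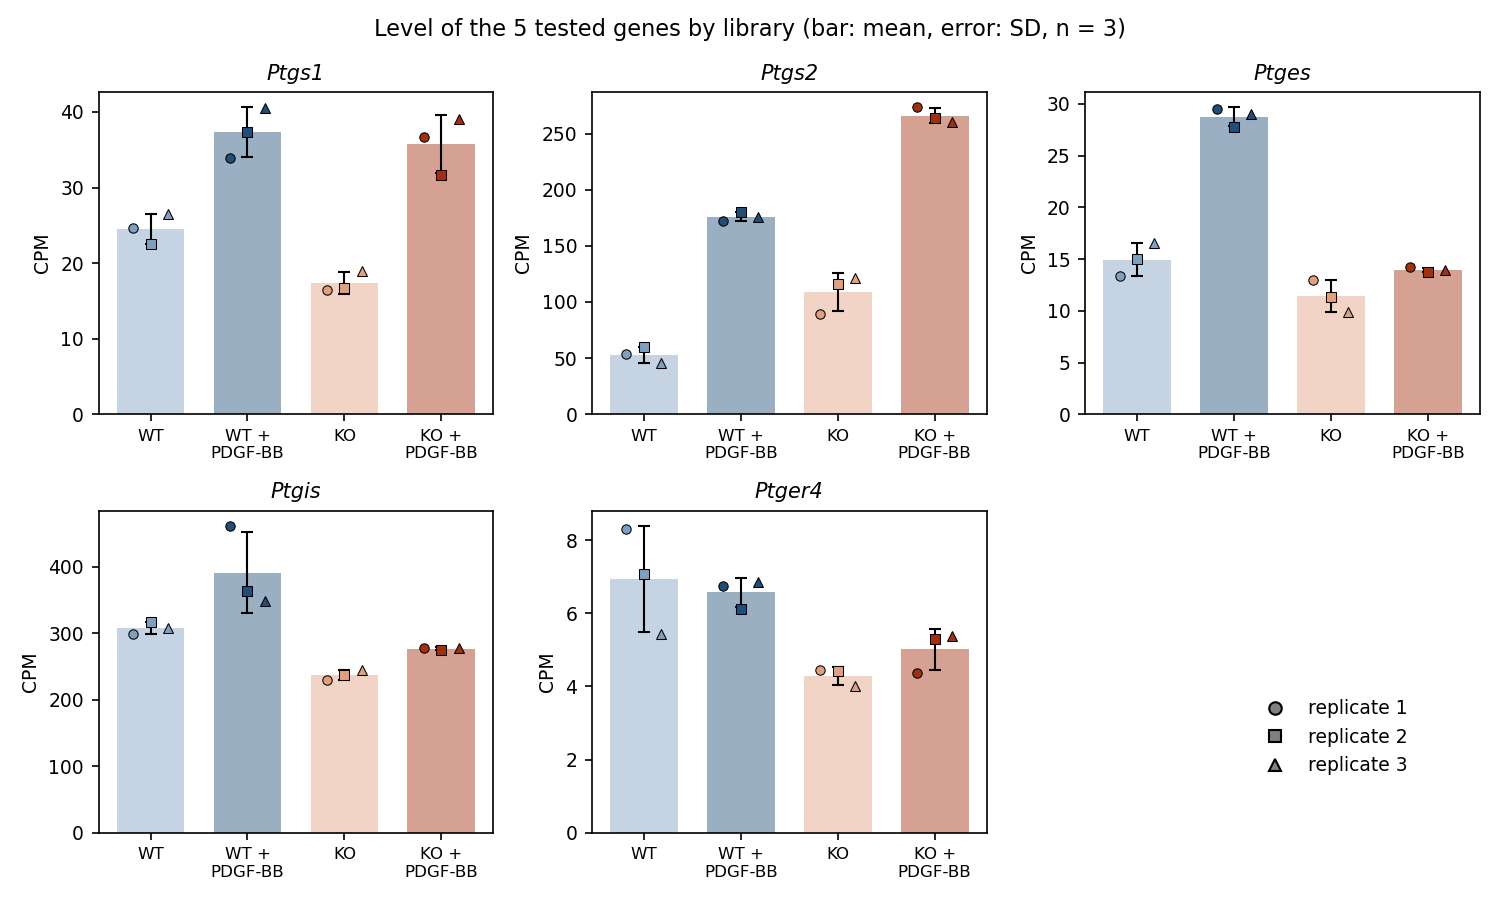
Level in CPM (vertical axes, starting at 0) of the 5 tested genes in the 4 groups, where KO is the labelled knockout; bars are means, error bars SD over 3 libraries and points the libraries. Ptgs2 rises from a mean of 52.9 to 176 CPM in wild-type and from 109 to 266 CPM in labelled knockout cells, while every Ptges value of labelled knockout libraries is at or below 14.2 CPM.

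Ptgs1, which encodes COX-1, the cyclooxygenase that most tissues express without stimulation, also rose with PDGF-BB but was lower in labelled knockout cells when untreated. Ptgs1 (ENSMUSG00000047250, chromosome 2, 36230426 to 36252272, plus strand) stood at 24.7, 22.5 and 26.5 CPM in wild-type untreated and 33.9, 37.3 and 40.6 CPM in wild-type treated libraries. Its labelled knockout values were 16.4, 16.7 and 19.0 CPM untreated and 36.7, 31.6 and 39.0 CPM with PDGF-BB. The treated libraries of the 2 genotypes overlapped, and the untreated ones did not. The change with PDGF-BB was 0.58 (SE 0.10, adjusted p = 0.000278) in wild-type and 1.00 (SE 0.10, adjusted p = 6.22e-06) in labelled knockout cells. The difference between genotypes in untreated cells was -0.48 (SE 0.10, adjusted p = 0.00265) and in treated cells -0.06 (95% interval -0.28 to 0.16, adjusted p = 0.666), and the sign of the latter turned in 7 of 24 settings, among them TMM scaling (0.05). With the trend along exon length removed, the untreated difference was -0.31 (adjusted p = 0.0273). The difference between the responses, 0.42, was not called (95% interval 0.11 to 0.73, adjusted p = 0.129).

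The balance between the cyclooxygenases was followed as a ratio. The ratio of Ptgs2 to Ptgs1, each per kilobase of exon, was 1.84, 2.25 and 1.46 in wild-type untreated libraries and 4.30, 4.10 and 3.67 with PDGF-BB. It was 4.61, 5.92 and 5.41 in labelled knockout untreated libraries and 6.32, 7.09 and 5.65 with PDGF-BB. All 3 labelled knockout untreated libraries thus lay above the wild-type libraries of either condition, and the labelled knockout groups overlapped each other. The size of the ratio depends on the exon lengths used, 3884 bases for Ptgs1 and 4580 for Ptgs2. The deposited lengths are 2867 and 4453 bases, with which wild-type untreated means would be 8.56 CPM per kb for Ptgs1 and 11.9 for Ptgs2. Other lengths multiply the ratios of all libraries alike. An exact 2-sided permutation test of 3 against 3 libraries cannot give a p below 0.1: it gave 0.1 for PDGF-BB in wild-type and for both genotype comparisons, and 0.2 for PDGF-BB in labelled knockout cells.

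**Figure D2:**
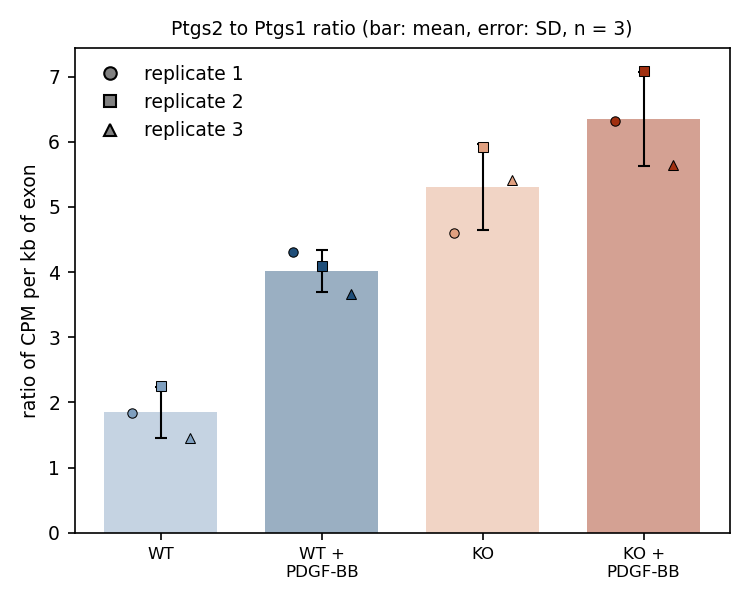
Ratio of Ptgs2 to Ptgs1, each in CPM per kb of exon (vertical axis, starting at 0), in the 4 groups; bars are means, error bars SD over 3 libraries and points the libraries. Wild-type untreated libraries lie between 1.46 and 2.25, and all others at 3.67 or above.

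Ptges, which encodes microsomal prostaglandin E synthase-1, the enzyme that is usually induced together with COX-2, had the largest genotype difference with PDGF-BB among the 5 tested genes. Ptges (ENSMUSG00000050737, chromosome 2, 30889471 to 30929863, minus strand) stood at 13.4, 15.0 and 16.5 CPM in wild-type untreated and 29.5, 27.8 and 29.0 CPM in wild-type treated libraries. In labelled knockout cells it stood at 13.0, 11.4 and 9.90 CPM untreated and 14.2, 13.8 and 13.9 CPM with PDGF-BB. Every treated wild-type library was thus higher than any other, and the treated labelled knockout libraries lay within the range of untreated wild-type. The change with PDGF-BB was 0.90 in wild-type (SE 0.10, adjusted p = 7.39e-06) and 0.28 in labelled knockout cells (SE 0.10, adjusted p = 0.0440). Labelled knockout fell below wild-type by 0.99 on the log2 scale with PDGF-BB (SE 0.10, adjusted p = 7.68e-06). The wild-type response and the difference with PDGF-BB held in each of 24 settings.

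The smaller Ptges differences were less firm. The response in labelled knockout minus that in wild-type was -0.63 (SE 0.15, adjusted p = 0.0293), 1 of 557 genes called for this difference. It was negative in all 23 alternative settings but missed the threshold in 10 of them. The adjusted p was 0.0869 without replicate 1 and 0.0676 without replicate 2 of wild-type untreated, 0.0503 and 0.0706 without replicates 1 and 2 of labelled knockout untreated, and 0.0708, 0.0825 and 0.0730 without replicates 1, 2 and 3 of labelled knockout with PDGF-BB. It was 0.0557 with no filter on low values and 0.0580 with the exon length trend removed. The rise in labelled knockout cells lost its call in 9 of 24 settings: the adjusted p was 0.184 (log2 change 0.19) without replicate 3 and 0.0881 without replicate 2 of labelled knockout untreated, 0.111, 0.0850 and 0.0960 without replicates 1, 2 and 3 of labelled knockout with PDGF-BB, 0.0586 and 0.0543 without replicate 2 of the untreated and of the treated wild-type group, and 0.0754 with no filter. The untreated genotype difference was -0.36 (SE 0.10, adjusted p = 0.0147), which was not called with TMM scaling (-0.24, adjusted p = 0.0946) or edgeR (-0.26, adjusted p = 0.0900), nor with quantile normalization (-0.22, adjusted p = 0.112), DESeq2 (-0.25, adjusted p = 0.121) or the exon length trend removed (-0.28, adjusted p = 0.0777). It was also lost when replicate 3 of either untreated group was left out, with -0.29 (adjusted p = 0.0742) for wild-type and -0.27 (adjusted p = 0.0741) for labelled knockout.

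Ptgis encodes prostacyclin synthase, the endoplasmic reticulum enzyme that makes the vasodilator of this pathway, and was lower in labelled knockout cells under both conditions. Ptgis (ENSMUSG00000017969, chromosome 2, 167191805 to 167240604, minus strand) stood at 299, 317 and 309 CPM in wild-type untreated and 462, 364 and 348 CPM in wild-type treated libraries. In labelled knockout cells the libraries held 230, 237 and 245 CPM untreated and 278, 275 and 279 CPM with PDGF-BB. No groups overlapped, and the library at 462 CPM is the replicate 1 that stood apart. The rise with PDGF-BB was 0.33 in wild-type (SE 0.09, adjusted p = 0.00537) and 0.21 without that library (adjusted p = 0.000593). In labelled knockout cells the change of 0.22 was not called (adjusted p = 0.0559), although 8 of 24 settings called it, TMM scaling among them (0.28, adjusted p = 0.0169). The genotype difference was -0.38 untreated (SE 0.09, adjusted p = 0.00479) and -0.49 treated (SE 0.09, adjusted p = 0.000900). With the exon length trend removed it was -0.22 and -0.27, still called, and the untreated difference was not called by edgeR (-0.24, adjusted p = 0.0534). The response did not differ by a called amount between genotypes (-0.11, 95% interval -0.38 to 0.16, adjusted p = 0.666).

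Among the 6 receptor genes, Ptger4 was the only one above the filter. EP4 signals through the stimulatory G protein to cyclic AMP. Ptger4 (ENSMUSG00000039942, chromosome 15, 5206661 to 5244187, minus strand) stood at 8.32, 7.08 and 5.42 CPM in wild-type untreated and 6.74, 6.11 and 6.87 CPM in wild-type treated libraries. Labelled knockout libraries stood at 4.45, 4.41 and 4.00 CPM untreated and 4.38, 5.30 and 5.37 CPM with PDGF-BB. The untreated genotypes did not overlap, and neither genotype's treated libraries stood clear of its untreated ones. The untreated genotype difference was -0.57 (SE 0.14, adjusted p = 0.00533), a call kept in each of 24 settings. With PDGF-BB the difference of -0.33 was not called (95% interval -0.63 to -0.04, adjusted p = 0.0678), although the treated genotypes did not overlap either and 2 of 24 settings called it, library weights (-0.26, adjusted p = 0.00643) and replicate 3 of wild-type untreated left out (adjusted p = 0.0403). The change with PDGF-BB was -0.05 in wild-type (95% interval -0.34 to 0.24, adjusted p = 0.754), with a sign that turned under TMM scaling (0.02), and 0.18 in labelled knockout cells (95% interval -0.11 to 0.48, adjusted p = 0.298). Exons of other genes on the opposite strand, Ttc33 and Gm15937, cover 16.5% of the Ptger4 exons, and the strand setting of the counting is not given in the sources used here.

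Counted over the contrasts, 4 of the 5 tested genes were called higher with PDGF-BB in wild-type, where 59.4% of all tested genes were called, 25.0% higher and 34.4% lower. In labelled knockout cells 3 of 5 were called higher, against 42.4% of all genes, 17.6% higher and 24.8% lower. Between untreated genotypes all 5 were called, 1 higher and 4 lower in labelled knockout, against 34.0% of all genes, 9.15% higher and 24.8% lower. With PDGF-BB 1 was higher and 2 were lower, against 37.2% of all genes, 10.6% higher and 26.6% lower. For the difference between responses 1 was called, against 3.92% of all genes, 2.25% positive and 1.68% negative. The ranges of the compared libraries stood clear of each other in 62.3% of all tested genes for PDGF-BB in wild-type, 63.2% for PDGF-BB in labelled knockout, 54.7% for the untreated genotypes and 49.5% for the treated ones. Only the genes that passed the filter are in these counts.

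**Figure D3:**
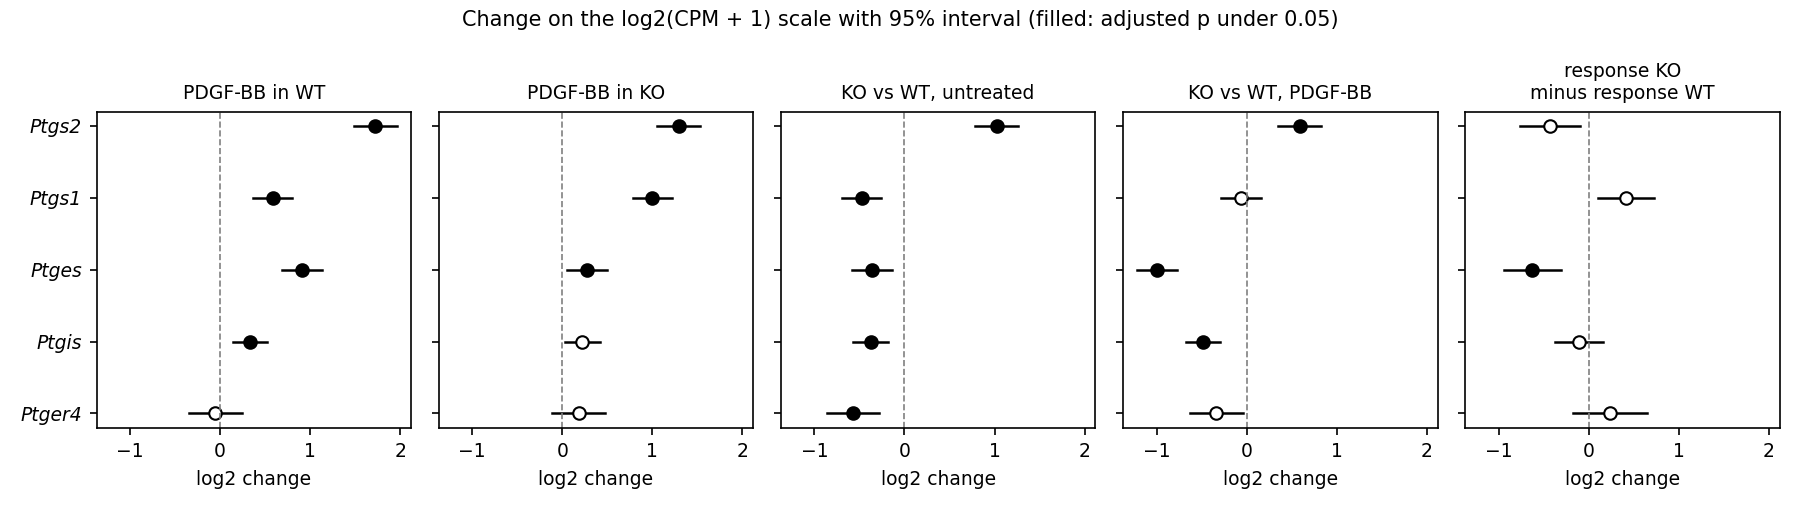
Log2 change on the log2(CPM + 1) scale (horizontal axes) of the 5 tested genes in the 5 contrasts, where KO is the labelled knockout; points are estimates from the fit of 12 libraries, bars 95% intervals, and filled points passed an adjusted p of 0.05. Ptges is the filled point in the last panel, at -0.63, and Ptgs2 the filled point on the positive side of both genotype panels, at 1.02 and 0.59.

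TMM scaling moved the median of all genes in the untreated genotype comparison by 0.12, from -0.13 to -0.01. On that scale the untreated differences were 1.15 for Ptgs2, -0.35 for Ptgs1, -0.46 for Ptger4 and -0.24 for both Ptgis and Ptges, all called but that of Ptges. The marker levels of other cell types moved with the genotype label: 9 of 9 tested endothelial markers were higher in labelled knockout cells under both conditions, by a median of 2.64 on the log2 scale untreated, and 10 of 10 tested macrophage markers were lower untreated and 9 of 10 with PDGF-BB. Of 7 tested fibroblast markers 3 were higher under each condition, Col14a1 (210 against 1257 CPM untreated), Mfap5 (50.3 against 117 CPM) and Pi16, while Pdgfra was lower with PDGF-BB (-0.92, adjusted p = 0.000318). The median of the 7 was -0.13 untreated and 0.03 with PDGF-BB, against -0.13 and -0.14 over all genes. Of 9 tested smooth muscle markers 4 were higher untreated and 7 with PDGF-BB, and of 7 mast cell genes only Kit was tested, with Tpsb2, Cma1 and Ms4a2 at 0 in every library. The part of these markers in the differences of Ptgs2, Ptgs1, Ptges, Ptgis and Ptger4 between genotypes was not tested, and in bulk RNA a change in the number of cells of a type and a change in RNA per cell cannot be told apart.

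The other 5 receptor genes were close to the limit of detection, and none reached 1 CPM in 3 libraries. Ptgfr, the receptor for prostaglandin F2α (chromosome 3, 151796502 to 151837630, minus strand), held 2, 7 and 7 reads in wild-type untreated and 21, 15 and 30 reads in wild-type treated libraries, which is 0.126, 0.356 and 0.417 CPM against 1.28, 0.997 and 1.84 CPM. In labelled knockout cells it held 4, 3 and 13 reads untreated and 7, 11 and 13 reads with PDGF-BB, which is 0.262, 0.201 and 0.723 CPM against 0.323, 0.535 and 0.812 CPM. Treated wild-type libraries lay above all others. In a fit with no filter on low values the change with PDGF-BB in wild-type was 0.86 on the log2(CPM + 1) scale (SE 0.18, adjusted p = 0.00268), where 28.3% of all genes were called, and the genotype difference with PDGF-BB was -0.60 (adjusted p = 0.0389), where 14.6% were called. The change in labelled knockout cells was 0.17 (SE 0.18, adjusted p = 0.625), and the difference between responses of -0.69 was not called (adjusted p = 0.262), a contrast in which 1.22% of all genes were called.

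Ptgir, the prostacyclin receptor (chromosome 7, 16906490 to 16910905, plus strand), held 7, 11 and 8 reads in wild-type untreated and 11, 23 and 16 reads in wild-type treated libraries, and 7, 5 and 6 reads against 34, 15 and 15 reads in labelled knockout ones. In CPM the means were 0.493 ± 0.0611 and 1.06 ± 0.436 in wild-type and 0.375 ± 0.0716 and 1.08 ± 0.436 in labelled knockout cells (SD, n = 3). In both genotypes all treated libraries lay above all untreated ones. The fit without a filter called the change in labelled knockout cells (0.58, SE 0.17, adjusted p = 0.0311), where 18.0% of genes were called, and not that in wild-type (0.44, SE 0.17, adjusted p = 0.0690). It did not call the untreated genotype difference (-0.12, adjusted p = 0.711), a comparison in which it called 15.4% of genes. Among genes with a mean between 0.1 and 2 CPM, the ranges stood clear of each other in 33.9% for PDGF-BB in wild-type, 27.8% for PDGF-BB in labelled knockout, 26.9% between untreated and 23.1% between treated genotypes.

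The remaining receptors bind prostaglandin E2. Ptger1, the EP1 receptor (chromosome 8, 83666678 to 83672753, plus strand), held 3 to 15 reads a library, with group means of 0.329 to 0.624 CPM and overlapping ranges in all 4 comparisons. Ptger3, the EP3 receptor, which lowers cyclic AMP (chromosome 3, 157566892 to 157645888, plus strand), held 0 to 6 reads a library. Ptger2, the EP2 receptor, which raises cyclic AMP (chromosome 14, 44988195 to 45003820, plus strand), had 2 reads in replicate 2 of labelled knockout untreated and none in the other 11 libraries, where a count of 0 allows up to 0.138 to 0.199 CPM. At these low read counts the fit without a filter called no difference in Ptger1, Ptger2 or Ptger3 in any contrast.

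**Figure D4:**
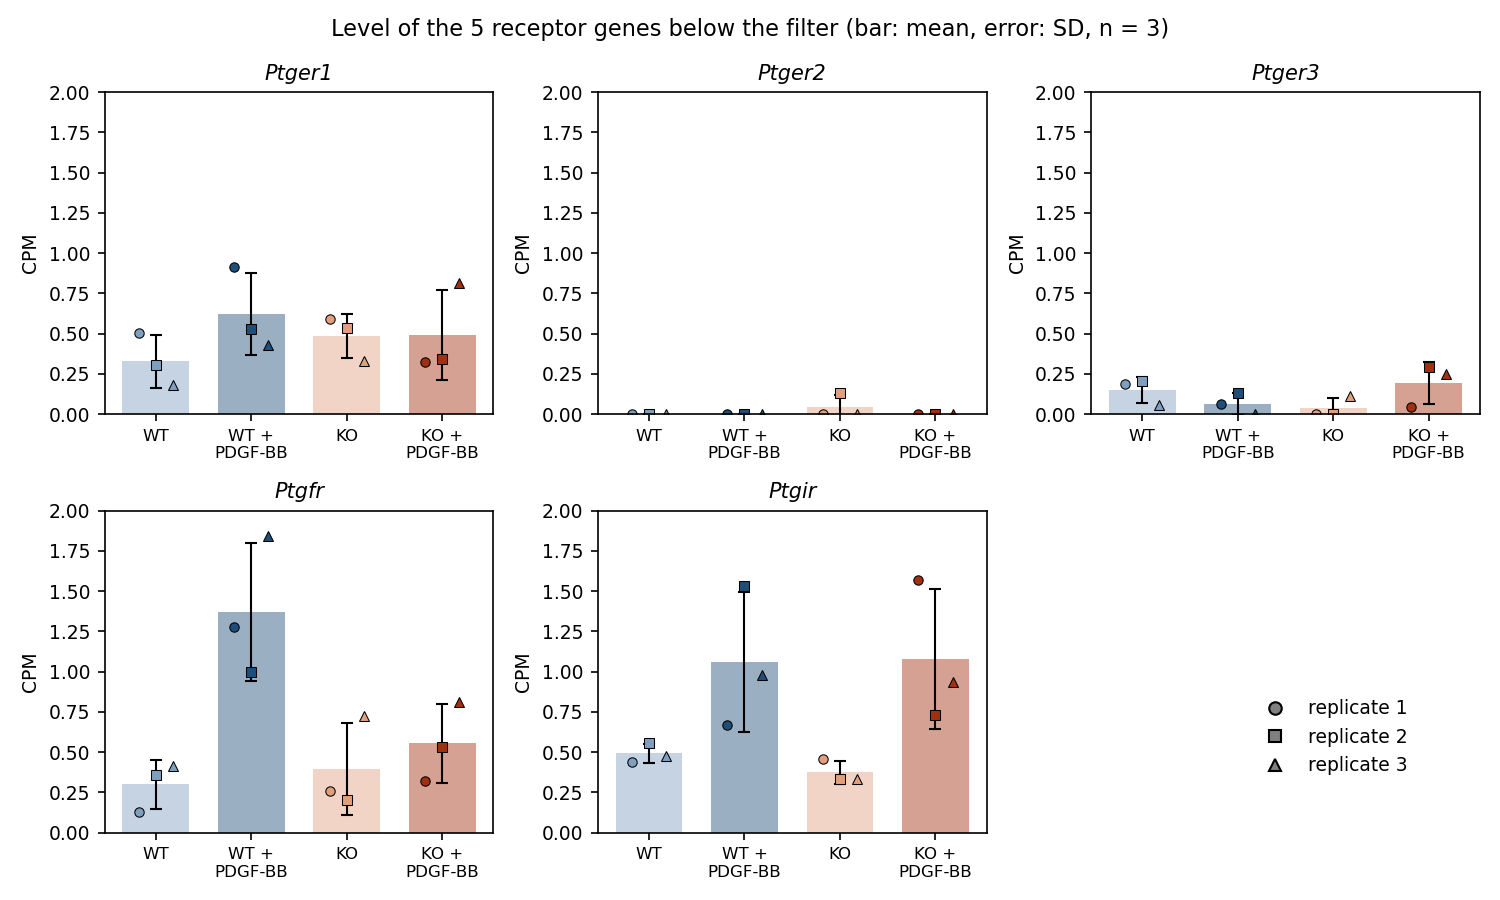
Level in CPM (vertical axes, 0 to 2) of the 5 receptor genes below the filter in the 4 groups, where KO is the labelled knockout; bars are means, error bars SD over 3 libraries and points the libraries. Ptgfr is highest in wild-type with PDGF-BB, at 0.997 to 1.84 CPM, and Ptger2 is at 0 in all libraries but 1.

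Genes with a pattern most like that of Ptgs2 over the 12 libraries were found by the root mean square difference between centred log2(CPM + 1) values. Among the closest of 12169 were Stard4, a sterol carrier, at 0.187, Tmem200a at 0.198, Noct, a circadian nicotinamide dinucleotide phosphatase, at 0.214 and Tagln2 at 0.226, against a median of 0.950 over all genes compared. For Ptgis the closest were Surf2 at 0.0402, Arl6ip5 at 0.0533, Fbxl6 at 0.0638, Rrp1 at 0.0651 and Pja1 at 0.0653, against a median of 0.336. These are descriptions over 12 libraries that share treatment and genotype labels.

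Upstream of the cyclooxygenases, 10 of 17 phospholipase and arachidonate-release genes in the table were tested. With PDGF-BB 3 rose and 2 fell in wild-type and 3 rose and 1 fell in labelled knockout cells, with list medians of 0.11 and 0.08 against -0.08 and -0.07 over all genes. Of all tested genes 59.4% and 42.4% were called in these comparisons, and 34.0% and 37.2% between the untreated and the treated genotypes, and the counts of this and each later list stand beside those shares. Pla2g4a, the cytosolic phospholipase A2 that supplies most arachidonic acid for prostaglandins, went from 79.5, 89.6 and 87.6 to 174, 153 and 151 CPM in wild-type and from 85.7, 85.3 and 88.8 to 156, 162 and 157 CPM in labelled knockout cells. The genotypes overlapped at each condition, and both responses were called (0.89 and 0.86, adjusted p = 2.50e-07 and 7.99e-07), with a genotype difference of 0.02 untreated (SE 0.07, adjusted p = 0.867). Pla2g15, a lysosomal phospholipase, rose by 0.53 and 0.78, and Mgll, which releases arachidonic acid from a monoacylglycerol, by 0.52 and 0.93. Pla2g6, the calcium-independent phospholipase, fell by 0.98 in wild-type and by 0.51 in labelled knockout cells.

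Between genotypes, 4 of the 10 were lower and none higher untreated in labelled knockout cells (list median -0.31, all genes -0.13), and 4 were lower and 1 higher with PDGF-BB (-0.26, all genes -0.14). Untreated, TMM scaling and quantile normalization each gave 3 lower and 1 higher (medians -0.18 and -0.19), and 7 were lower and 1 higher without replicate 1 of the treated wild-type group. Plaat3, a phospholipase A of the HRAS-like family, differed by -0.90 untreated and -0.80 with PDGF-BB, and Dagla, a diacylglycerol lipase, by -0.74 and -0.72. Pla2g7, the phospholipase that degrades platelet-activating factor and that macrophages express, was at 1.44 CPM in wild-type and 0.293 CPM in labelled knockout untreated cells (-0.92, adjusted p = 0.000433). These 3 kept their calls in every setting that tested them, which was 23 for Pla2g7. Pla2g7 passed the filter only through wild-type libraries. Its labelled knockout untreated libraries held 0.523, 0.134 and 0.222 CPM, where 3 reads are 0.167 to 0.201 CPM. Pla2g6, at -0.39 untreated, lost its call in 6 of 24 settings, and Daglb, at -0.27 with PDGF-BB, in 10 of 24. Pla2g15 was higher with PDGF-BB by 0.42. The part of the lower macrophage markers in these differences was not tested.

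Of 8 other enzymes of prostanoid synthesis 6 were tested, with 4 higher and 1 lower with PDGF-BB in wild-type and 2 higher and 1 lower in labelled knockout cells (list medians 0.54 and 0.28). Ptges3, a cytosolic prostaglandin E synthase that is also the HSP90 co-chaperone p23, went from 69.0 ± 2.86 to 122 ± 26.7 CPM in wild-type and from 68.5 ± 0.708 to 89.6 ± 5.35 CPM in labelled knockout cells (SD, n = 3). Its highest library, at 152 CPM, was again replicate 1 of wild-type with PDGF-BB, and without that library the list median in wild-type was 0.37. Ptges2, the membrane-associated synthase, went from 12.6 to 21.3 and from 12.1 to 17.0 CPM, with calls in both genotypes (0.69 and 0.46). Prxl2b, a prostamide and prostaglandin F synthase, rose in wild-type by 0.84, and Akr1b3, an aldose reductase with prostaglandin F synthase activity, by 0.39. Replicate 1 of the treated wild-type group was the highest library of both, and without it the changes were 0.53 (adjusted p = 0.00124) and 0.21 (adjusted p = 0.00609). The Akr1b3 call was lost when only the 2 compared groups were fitted (adjusted p = 0.0617). In labelled knockout cells the changes of Prxl2b and Akr1b3, 0.53 and 0.19, were not called (adjusted p = 0.0538 and 0.217), although 10 and 4 of 24 settings called them. Cbr1, a carbonyl reductase that can reduce prostaglandin E2, fell by 0.67 in labelled knockout cells. Its fall in wild-type (-0.42) was lost in 8 of 24 settings, and with treated libraries left out it was -0.63 without replicate 1 (adjusted p = 5.71e-06) and -0.27 without replicate 2 (adjusted p = 0.119).

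Between genotypes, 1 of the 6 was lower untreated and 4 were lower with PDGF-BB in labelled knockout cells. The list medians were -0.18 and -0.51, against -0.13 and -0.14 over all genes. TMM scaling gave 1 higher and 1 lower untreated and 3 lower with PDGF-BB (medians -0.06 and -0.40). Quantile normalization gave 1 lower untreated and 2 lower with PDGF-BB (medians -0.03 and -0.37). Hpgds, the prostaglandin D synthase of haematopoietic cells, stood at 2.08, 2.34 and 2.03 CPM in wild-type and 1.18, 0.602 and 0.667 CPM in labelled knockout untreated libraries (-0.81, adjusted p = 0.00223). With PDGF-BB its difference was -0.86, with 0.184, 0.438 and 0.375 CPM in labelled knockout libraries, where 3 reads are 0.138 to 0.187 CPM. The treated Cbr1 difference was -0.60. Both calls held in every setting that tested the gene, that of Cbr1 at -0.38 without replicate 1 of the treated wild-type group. The treated difference of Ptges3, -0.42, was lost in 2 of 24 settings, and that of Prxl2b, -0.61, in 8 of 24. Without the same library these differences were -0.25 (adjusted p = 0.00249) and -0.30 (adjusted p = 0.0633), and the list median of the treated comparison was -0.27, with 3 lower and 1 higher. Untreated, 3 were then lower and 1 higher. The part of the lower macrophage markers in the Hpgds difference was not tested.

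Among the clearance genes, Slco2a1, the transporter that takes prostaglandins into cells for breakdown, rose with PDGF-BB and was lower in labelled knockout cells. Slco2a1 stood at 201, 207 and 195 CPM in wild-type untreated and 423, 607 and 624 CPM in wild-type treated libraries, and at 71.4, 91.7 and 93.8 against 319, 301 and 306 CPM in labelled knockout ones. The lowest treated wild-type library, at 423 CPM, was replicate 1, and no groups overlapped. It rose by 1.43 in wild-type and 1.85 in labelled knockout cells (adjusted p = 1.08e-06 and 2.85e-07) and differed between genotypes by -1.23 untreated and -0.81 with PDGF-BB (adjusted p = 1.09e-05 and 0.000382), all kept in every setting. Hpgd, the dehydrogenase that inactivates prostaglandins in the cytosol, fell with PDGF-BB by 0.64 in wild-type, a call lost in 6 of 23 settings, and by 1.01 in labelled knockout cells. All 6 clearance genes in the table were tested, and 1 rose and 2 fell with PDGF-BB in each genotype. In labelled knockout cells 1 was higher and 2 were lower than wild-type under each condition. TMM scaling and quantile normalization each gave 1 higher and 1 lower under each condition. Ptgr2, a prostaglandin reductase, fell by 0.38 in wild-type and by 0.26 in labelled knockout cells, the second lost in 8 of 24 settings. Ptgr1, another reductase, differed by -0.57 untreated and -0.55 treated, lost in 9 and 7 of 24 settings, the treated one being -0.31 without replicate 1 of the treated wild-type group. Slco3a1, an organic anion transporter, was higher by 0.28 and 0.48, the first lost in 4 of 24.

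**Figure D5:**
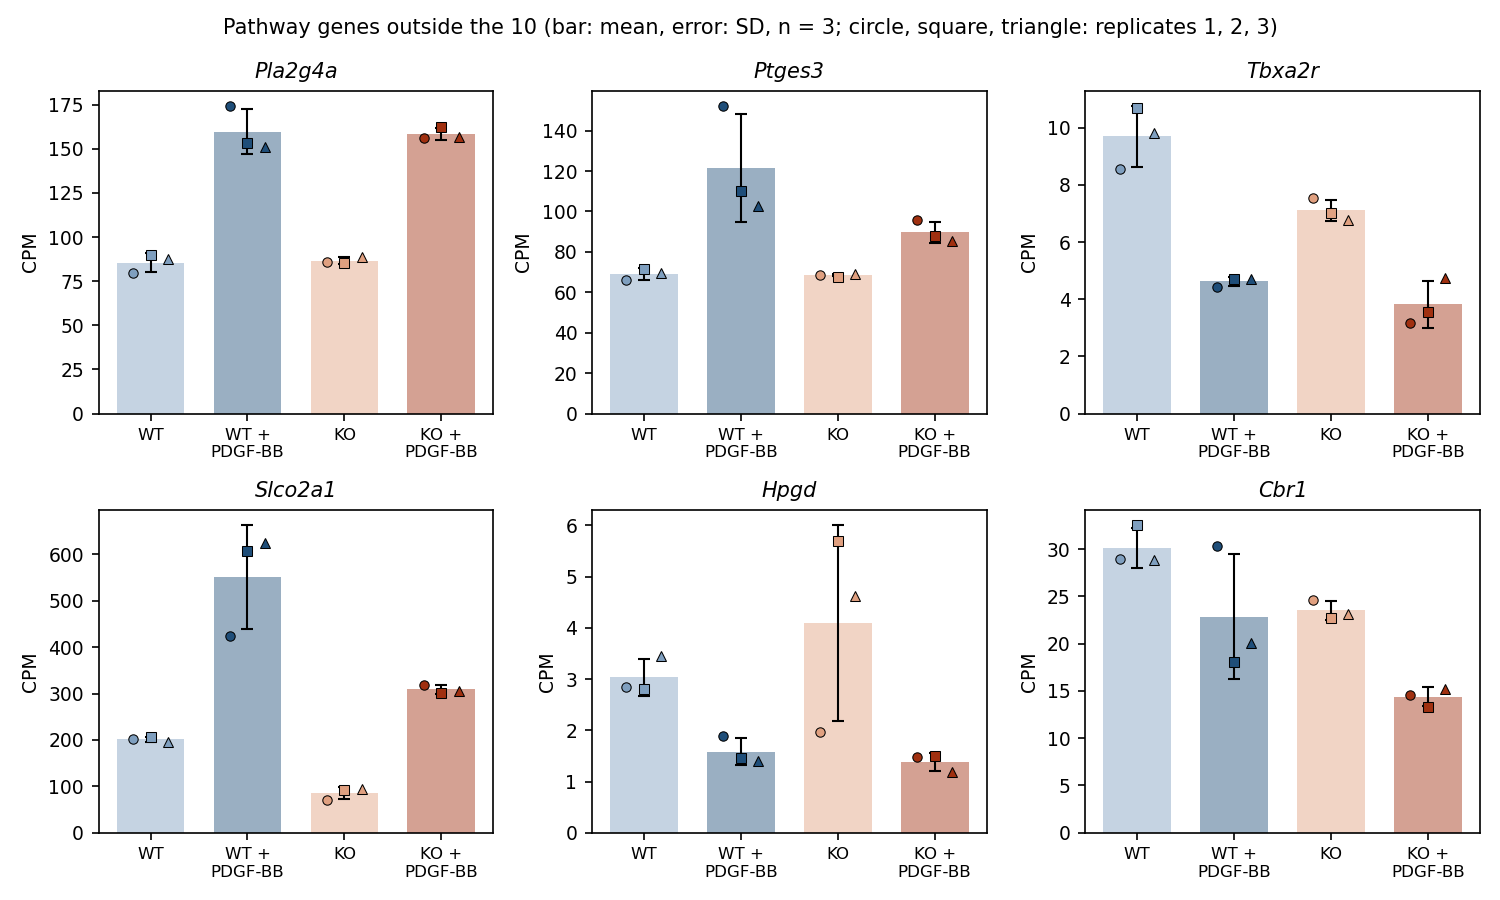
Level in CPM (vertical axes, starting at 0) of 6 further genes of prostaglandin supply, synthesis, reception and clearance in the 4 groups, where KO is the labelled knockout; bars are means, error bars SD over 3 libraries and points the libraries. Pla2g4a is at 85.6 and 86.6 CPM in untreated wild-type and labelled knockout cells and at 160 and 158 CPM with PDGF-BB, while Slco2a1 is at 551 and 309 CPM with PDGF-BB.

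The receptor for thromboxane A2, Tbxa2r, whose activation contracts vascular smooth muscle, fell in both genotypes. It stood at 8.57, 10.7 and 9.83 CPM in wild-type untreated and 4.43, 4.72 and 4.72 CPM in wild-type treated libraries, and at 7.52, 7.02 and 6.78 against 3.18, 3.55 and 4.75 CPM in labelled knockout ones. All treated libraries lay below all untreated ones. The changes of -0.92 and -0.76 (adjusted p = 4.08e-05 and 0.000371) kept their calls in every setting, whereas the untreated genotype difference of -0.40 (adjusted p = 0.0289) was lost in 10 of 24. Ptgfrn, a membrane protein that lowers ligand binding to the prostaglandin F receptor, was higher in labelled knockout cells with PDGF-BB by 0.35, lost in 5 of 24 settings, and by 0.18 without replicate 1 of the treated wild-type group (adjusted p = 0.00850). The other 2 of the 4 further receptor genes did not pass the filter. Of 13 lipoxygenase and leukotriene genes only Lta4h, leukotriene A4 hydrolase, passed it. Its untreated genotype difference of -0.26 (adjusted p = 0.0385) was lost in 15 of 24 settings.

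Of 27 G protein, adenylyl cyclase, protein kinase A and arrestin genes that couple prostaglandin receptors to the cell, 26 were tested. With PDGF-BB 8 rose and 8 fell in wild-type and 7 rose and 5 fell in labelled knockout cells, with list medians of -0.04 and 0.05. In labelled knockout 3 were higher and 8 lower untreated, and 3 higher and 4 lower with PDGF-BB. This balance turned with the scaling: TMM gave 7 higher and 4 lower untreated and 6 higher and 2 lower with PDGF-BB, and quantile normalization 4 and 4, and 6 and 2. Without replicate 1 of the treated wild-type group it was 5 and 10 untreated and 3 and 7 with PDGF-BB. Adenylyl cyclases differed in both directions: Adcy4 went from 3.08 CPM in wild-type to 15.8 CPM in labelled knockout untreated cells (2.04, adjusted p = 7.40e-08), and Adcy2 from 9.42 to 1.64 CPM (-2.00, adjusted p = 2.20e-07). The endothelial markers moved the same way as Adcy4, and their part in its difference was not tested. Adcy1 fell with PDGF-BB in wild-type from 10.0 to 2.74 CPM (-1.57). In labelled knockout cells it fell from 6.64 to 4.01 CPM (-0.61, adjusted p = 0.0149), a call lost in 4 of 24 settings. The difference between its responses, 0.96, was not called (adjusted p = 0.0555), although 7 of 23 settings called it. Arrb2, beta-arrestin 2, differed between genotypes by -0.81 untreated and -0.98 treated. For the difference between responses, Gnai1, an inhibitory G protein subunit, was the only one of these 26 called (0.80, adjusted p = 0.00119), in each of 23 alternative settings too. Gnai1 is named after its value was seen, and 3.92% of all tested genes were called for this difference.

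Cyclic AMP and CREB target genes split in both directions: of 15 tested, 7 rose and 5 fell with PDGF-BB in wild-type and 3 rose and 2 fell in labelled knockout cells, with medians of 0.04 and 0.02. The orphan receptor Nr4a3 went from 0.194 to 3.88 CPM in wild-type and from 0.404 to 2.90 CPM in labelled knockout cells (2.04 and 1.48, adjusted p = 3.66e-07 and 1.46e-05). Pde4b, a phosphodiesterase that breaks down cyclic AMP, fell by 0.73 and 0.56 and was higher in labelled knockout by 0.74 and 0.91. Il6, the cytokine interleukin 6, was at 2.39, 2.39 and 1.67 CPM in wild-type and 11.3, 21.1 and 18.0 CPM in labelled knockout untreated libraries, groups that did not overlap (2.46, adjusted p = 6.59e-07). Has2, a hyaluronan synthase, rose in wild-type by 0.75 and stood higher in untreated labelled knockout cells by 1.06. Between genotypes 3 were higher and 1 lower untreated and 2 higher and 2 lower with PDGF-BB. TMM scaling gave 4 higher and none lower untreated and 3 and none with PDGF-BB, quantile normalization 5 and none, and 3 and none, whereas 4 and 4, and 2 and 3 were called without replicate 1 of the treated wild-type group. For the difference between responses 1 was called, against 3.92% of all tested genes. This was Per1, a circadian clock gene, at 0.57 (adjusted p = 0.0128), kept in each of 23 alternative settings and named after its value was seen.

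All 13 genes of the list of factors that act on the Ptgs2 gene or on decay of its mRNA were tested. With PDGF-BB 5 rose and 4 fell in wild-type and 4 rose and 3 fell in labelled knockout cells (medians -0.04 and -0.02). Members of the Zfp36 family, which bind AU-rich elements and speed mRNA decay, moved in opposite directions: Zfp36l2 rose by 0.78 and 1.05 and Zfp36l1 fell by 1.01 and 0.89. Nfatc1, a calcium-regulated transcription factor, rose by 1.02 and 0.76. Compared with wild-type, none was higher and 5 were lower untreated, and 2 were higher and 5 lower with PDGF-BB. Untreated, TMM scaling gave 3 higher and 3 lower, quantile normalization 2 and 3, and the fit without replicate 1 of the treated wild-type group 2 and 7; with PDGF-BB both scalings gave 2 and 3. Zfp36l2 differed by -0.78 untreated and -0.51 treated, and Nfatc1 by -0.72 and -0.99. Cebpb, which encodes a C/EBP factor, was at 47.8 CPM in wild-type and 22.9 CPM in labelled knockout cells with PDGF-BB (-1.02, adjusted p = 0.000108). Its untreated difference of -0.48 was lost in 6 of 24 settings, and its rise with PDGF-BB in wild-type, 0.42, was lost without replicate 2 or replicate 3 of wild-type untreated and was 0.28 without replicate 1 of the treated group (adjusted p = 0.0422).

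Over the 36 genes named from these lists, 66 of 92 calls held in every setting and 26 ended in at least 1.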

How the data were processed

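Per the labels' protocols, total RNA of cultured cells was made into stranded mRNA libraries. HISAT2, HTSeq and the build mm10 are named in the submitters' processing notes; versions and the strand setting are not given in the sources used here. Per the file headers the assembly is GRCm38.p6. The deposited table is named for FPKM but holds CPM: each library sums to 1000000, and 100% of values are whole reads within 0.001 read. Genes with at least 1 CPM in at least 3 libraries (14202) were tested with limma-trend (limma 3.58.1, R 4.3.3) on log2(CPM + 1), 2-sided, with Benjamini-Hochberg adjustment over genes; fold changes on this scale understate changes of low genes. Of the 10 genes 5 passed. Alternatives were pseudocounts, filters, TMM and quantile scaling, edgeR 4.0.16, DESeq2 1.42.0 (both on reads recovered from CPM), library weights, a replicate block, an exon length trend and each library left out. EdgeR called 8414, 6030, 3936, 4141 and 496 genes in the 5 contrasts, in the order PDGF-BB in wild-type, PDGF-BB in labelled knockout, genotypes untreated, genotypes with PDGF-BB and difference between responses. Replicates differed by a chi-square of 1.72 to 67.8 per gene, so none was counted as a repeat deposit. The fit was also run on simulated reads with changes in 1 treated group only, unlike these data, and no result here rests on that run. All 10 genes are named, as are all called genes of the phospholipase, enzyme, receptor and clearance lists and up to 4 called genes of each other list with the largest change. The genes and lists were chosen with earlier results of these data known, and 1 gene that the rule on likeness names and 1 exon overlap are not reported here. Exon lengths and overlaps come from GENCODE M21 and promoters from RefSeq.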

Additional observations from a re-analysis of the deposited data

Results flagged for a closer look

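The response of Ptges to PDGF-BB differed between the genotypes by the test of the difference itself: the response in labelled knockout cells minus that in wild-type cells was -0.63 on the log2(CPM + 1) scale (limma-trend, adjusted p = 0.0293). Treated wild-type libraries stood at 27.8 to 29.5 CPM and treated labelled knockout libraries at 13.8 to 14.2 CPM. The value was negative in all 23 alternative settings and missed the threshold in 10 of them. The summed level of endothelial markers was 116 to 124 CPM in treated wild-type and 662 to 684 CPM in treated labelled knockout libraries. In untreated libraries it was 151 to 161 and 718 to 820 CPM. Treated macrophage sums were 119 to 172 and 36.4 to 40.3 CPM, and fibroblast sums 238 to 266 and 934 to 967 CPM. Smooth muscle sums were 4590 to 5259 CPM untreated and 3127 to 3699 CPM treated in wild-type libraries. In labelled knockout libraries they were 4538 to 6361 and 5419 to 5589 CPM. For the difference between responses, 0 of 9 endothelial, 1 of 10 macrophage and 0 of 7 fibroblast markers were called, against 3.92% of all genes. Of 9 tested smooth muscle markers 2 were called, with positive differences, and the list median was 0.39 against 0.005 over all genes. The part of these markers in the Ptges difference was not tested.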

How the results depend on the processing

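Over 25 changes of the 5 tested genes and up to 24 settings, 540 of 595 values kept their direction and side of the threshold, 27 lost a call, 15 gained one and 13 turned sign, none of the latter in a called change. The change of Ptger4 with PDGF-BB in wild-type turned to 0.017 with TMM scaling, 0.15 with quantile normalization, 0.0047 with edgeR and 0.031 with the exon length trend removed, and ran from -0.20 to 0.071 with 1 library left out, the highest without replicate 1 of wild-type untreated. The Ptgs1 genotype difference with PDGF-BB turned to 0.046 with TMM, 0.079 with quantile normalization, 0.047 with edgeR, 0.071 with DESeq2 and 0.086 with the length trend removed. It ran from -0.12 to 0.024 with 1 library left out, and was above 0 without replicate 3 of the treated wild-type (0.0014) or replicate 2 of the treated labelled knockout group (0.024). The Ptgis difference between responses ran from -0.19 to 0.015 over left-out libraries, above 0 only when the treated wild-type replicate 1 was out. Of the counts of genes called, that between untreated genotypes went from 5 to 3 with edgeR. That for the difference between responses went from 1 to 0 with no filter, with the replicate block and with the length trend removed, to 3 with library weights, and to between 0 and 2 with 1 library left out. The cause was not tested.

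The labels give the same numbers to libraries of each group, but same-numbered libraries did not deviate together: the correlation of their deviations over genes ran from -0.23 to 0.15 for PDGF-BB in wild-type, from -0.06 to 0.04 in labelled knockout, from -0.03 to 0.18 between untreated and from -0.07 to 0.01 between treated genotypes. With the replicate block the called counts were 4, 2, 5, 3 and 0 in the 5 contrasts, and Ptges lost its rise in labelled knockout cells (adjusted p = 0.0691) and its difference between responses (adjusted p = 0.0635). Depth limits the 5 receptors below 1 CPM: 1 read is up to 0.0669 CPM, and intervals cover the spread of 3 libraries a group.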
